A study of Mus musculus with 9 samples.

Results

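Pyruvate dehydrogenase is the mitochondrial complex that turns pyruvate, the end product of glycolysis, into acetyl-CoA for the tricarboxylic acid cycle. The rows of 10 genes were taken by symbol from the deposited tables of 24341 genes, and all 10 were present. They were the kinase genes Pdk1, Pdk2, Pdk3 and Pdk4, the phosphatase genes Pdp1 and Pdp2, and the subunit genes Pdha1, Pdhb, Dlat and Dld. RNA-seq counts came from mouse embryonic fibroblasts (MEFs), cultured connective tissue cells derived from embryos, in 9 samples of strain C57BL/6. There were 3 WT, 3 Sirt6-/- and 3 Atm-/- samples, none with a drug treatment in the labels. Sirt6 encodes a histone deacetylase that represses glycolytic genes, and Atm encodes the kinase that starts the response to DNA breaks. The comparisons asked how RNA of the complex and of its kinases and phosphatases stood in each knockout.

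The complex is switched off when a pyruvate dehydrogenase kinase phosphorylates its E1 component, and switched on again when a phosphatase removes the phosphate. E1 is built from an alpha subunit, encoded by Pdha1, and a beta subunit, encoded by Pdhb. E2 is encoded by Dlat and carries the acetyl group on lipoate, and E3, encoded by Dld, reoxidizes the lipoate and is shared with other dehydrogenase complexes. In many cells kinase gene expression rises with hypoxia, through HIF-1 at Pdk1, and with fasting, through PPAR and FOXO factors at Pdk4.

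The libraries had 32187040 to 33837949 counted reads, so that 3 reads, taken as the detection floor, equal 0.0887 to 0.0932 CPM (counts scaled to library size). Sirt6 had 4 to 7 reads in each Sirt6-/- sample, against 14.4 ± 1.32 normalized CPM in WT (mean ± SD, n = 3). Atm RNA was higher in the libraries labelled Atm-/-, at 104 ± 4.03 against 50.5 ± 2.02 normalized CPM in WT, so RNA level gave no check of that label, and these samples are named here by their label. Trp53 was at 25.9 ± 2.29 in the libraries labelled Atm-/- and at 219 ± 9.82 in WT. The labels name p53-deficient mice among the sources of cells without tying them to samples. The study's methods list immortalized MEFs, lacking both Atm and p53 or lacking Sirt6, each from another laboratory. Effects of Atm, of Trp53 and of the line itself cannot be told apart here, nor can those of Sirt6 and of its line. Neither labels nor methods say whether samples of 1 genotype are separate cultures, so p-values measure only the spread between these samples, which may be technical. Summed RPKM (read counts scaled to library size and to the kilobases of transcript) of 15 fibroblast marker genes was 7847 to 8204 in WT, 8029 to 8119 in Sirt6-/- and 3810 to 3841 in the libraries labelled Atm-/-. The sums hide changes in both directions, since of 14 fibroblast markers tested 6 were higher and 8 lower in Sirt6-/- than in WT, and 3 were higher and 11 lower in the libraries labelled Atm-/-. In Sirt6-/- Prrx1 was 28.1-fold higher, while Col1a1 stood at 0.275 and Thy1 at 0.0193 of WT. In the libraries labelled Atm-/- Prrx1 was 12.3-fold and Thy1 3.55-fold higher and Col1a1 at 0.169 of WT, and Lum, near the detection floor in the other samples, had no read. For 10 epithelial markers the sums were 14.6 to 16.8 in WT, 13.2 to 15.4 in Sirt6-/- and 64.0 to 69.6 in the libraries labelled Atm-/-. Of 9 tested in the last, 3 were higher and 1 lower than in WT, and Krt19, at 21.4-fold, and Krt18, at 3.88-fold, rose most. For 6 neural markers the sums were 2.37 to 2.79, 26.7 to 28.2 and 27.9 to 32.8 in the same order. Map2 was 27.0-fold and Tubb3 15.7-fold higher in Sirt6-/-, where of 3 tested 2 were higher and 1 lower. For 8 muscle and fat markers the sums were 6.95 to 10.0, 21.7 to 28.8 and 20.7 to 28.1, with no read of Myog or Plin1 in any sample. Only 2 of these were tested, and in Sirt6-/- Fabp4 was 2.80-fold higher and Des at 0.232 of WT. In the libraries labelled Atm-/- Fabp4 was 2.64-fold higher and Des did not pass the test. Of 7 endothelial markers only Kdr and Vwf were tested. Kdr was 3.24-fold higher in the libraries labelled Atm-/- and at 0.0674 of WT in Sirt6-/-. Vwf, with few reads, was higher in both knockouts. Of 7 blood markers 3 were tested, with 1 higher and 1 lower in the libraries labelled Atm-/-. In Sirt6-/- 1 was higher and 2 lower. The part of these differences in the results below was not tested. In bulk samples, fewer cells of a type and less RNA per cell cannot be told apart.

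The stretches upstream of the start of Pdk1, Pdk2, Pdp2 and Pdk3 are shown because the first 3 genes were higher in Sirt6-/- and the fourth lower. They are the 250 bases before the RefSeq start of each gene on build GRCm38.p6, 5′ to 3′ on the strand of the gene. The windows were chr2:71872974-71873223 on the plus strand for Pdk1, chr11:95041372-95041621 on the minus strand for Pdk2, chr8:104591222-104591471 on the plus strand for Pdp2 and chrX:93832151-93832400 on the minus strand for Pdk3. Capitals mark ACGTG and GCGTG, the core letters that HIF factors bind, on either strand.
Pdk1: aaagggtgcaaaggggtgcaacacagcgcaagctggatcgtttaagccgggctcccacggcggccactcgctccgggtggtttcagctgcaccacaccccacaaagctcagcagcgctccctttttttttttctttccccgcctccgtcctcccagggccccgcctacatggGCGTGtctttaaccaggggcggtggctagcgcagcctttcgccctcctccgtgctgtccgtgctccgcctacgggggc
Pdk2: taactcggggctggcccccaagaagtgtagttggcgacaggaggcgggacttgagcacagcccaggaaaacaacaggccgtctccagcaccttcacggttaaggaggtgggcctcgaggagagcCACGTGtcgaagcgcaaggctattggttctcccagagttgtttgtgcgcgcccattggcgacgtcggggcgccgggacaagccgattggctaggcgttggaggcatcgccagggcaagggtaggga
Pdp2: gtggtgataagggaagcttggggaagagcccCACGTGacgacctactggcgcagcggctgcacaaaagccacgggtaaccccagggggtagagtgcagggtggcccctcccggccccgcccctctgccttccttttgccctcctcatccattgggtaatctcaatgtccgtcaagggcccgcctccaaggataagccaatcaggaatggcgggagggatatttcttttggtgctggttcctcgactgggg
Pdk3: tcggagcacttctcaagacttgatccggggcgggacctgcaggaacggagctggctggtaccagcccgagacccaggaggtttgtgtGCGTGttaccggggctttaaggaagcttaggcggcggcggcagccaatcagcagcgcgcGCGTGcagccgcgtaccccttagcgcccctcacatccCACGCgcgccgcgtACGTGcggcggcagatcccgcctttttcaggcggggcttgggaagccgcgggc
Pdk1 held 1 GCGTG, starting 78 bases before the start. Pdk2 and Pdp2 each held the palindrome CACGTG, in which the first motif overlaps itself on both strands, starting 126 bases before the start in Pdk2 and 219 in Pdp2. The window of Pdk3, whose RNA was lower, held 4 matches in all. At least 1 of the motifs was in the window of 7 of the 9 members with a RefSeq entry and in 38.6% of all 32851 windows of this length, and the palindrome in 2 members and in 6.02% of all windows. These matches of letters describe the windows only. Pdp1 had no entry.

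In Sirt6-/- the kinase genes moved apart. Pdk1 and Pdk2 rose, Pdk3, the most abundant kinase gene, fell slightly, and Pdk4 was nearly undetected. Pdk1 (chromosome 2 from 71873224 to 71903858, GENCODE M21 on GRCm38) encodes a kinase that HIF-1 induces. It had 881, 865 and 973 reads in WT, 1782, 1861 and 1992 in Sirt6-/- and 802, 834 and 904 in the libraries labelled Atm-/-. The Sirt6-/- samples lay far above both other genotypes, which lay close to each other without overlap once scaled. Levels scaled over all 9 samples with TMM (trimmed mean of M-values, which scales libraries so that most genes stand level) were 28.7 ± 1.88, 57.3 ± 2.54 and 24.5 ± 1.90 normalized CPM in the same order. The log2 fold change against WT was 0.998 in Sirt6-/- (standard error 0.07, quasi-likelihood test of edgeR, p adjusted by Benjamini-Hochberg over all genes tested, adjusted p = 6.53e-09). The log2 fold change of the libraries labelled Atm-/- was -0.23 (95% interval -0.42 to -0.05, edgeR adjusted p = 0.0234). That small difference was lost without WT sample 3 or without sample 1 or 2 of those labelled Atm-/-, with a largest edgeR adjusted p of 0.111. It was -0.07 when libraries were scaled by their totals in place of TMM (edgeR adjusted p = 0.470). Directly compared, Pdk1 was lower in the libraries labelled Atm-/- than in Sirt6-/-, with a log2 difference of -1.22 (standard error 0.07, edgeR adjusted p = 1.35e-12).

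Pdk2 (chromosome 11 from 95026258 to 95041354), a widely expressed kinase gene, stood highest in Sirt6-/- and lowest in the libraries labelled Atm-/-. Its counts were 176, 130 and 157 in WT, 351, 381 and 388 in Sirt6-/-, and 91, 106 and 92 in the libraries labelled Atm-/-. The 3 genotypes did not overlap. Means were 4.89 ± 0.687, 11.4 ± 0.545 and 2.79 ± 0.210 normalized CPM. The log2 fold change against WT was 1.22 in Sirt6-/- (standard error 0.14, edgeR adjusted p = 1.68e-06) and -0.82 in the libraries labelled Atm-/- (standard error 0.19, edgeR adjusted p = 0.00131). Between the knockouts the log2 difference was -2.02 (standard error 0.14, edgeR adjusted p = 5.43e-11).

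Pdk3 (chromosome X from 93764607 to 93832201) had 2537, 2269 and 2530 reads in WT, 2096, 2001 and 2202 in Sirt6-/- and 2345, 2248 and 2112 in the libraries labelled Atm-/-. Counts of the knockouts overlapped each other, and both lay below WT once scaled. Levels were 77.5 ± 4.29, 64.1 ± 2.12 and 64.7 ± 2.68 normalized CPM. The log2 fold changes were alike, -0.27 in Sirt6-/- (edgeR adjusted p = 0.000704) and -0.27 in the libraries labelled Atm-/- (edgeR adjusted p = 0.00114), each with a standard error of 0.06. The second was -0.10 with library totals (edgeR adjusted p = 0.140). Between the knockouts the difference of 0.02 did not pass the test, with a 95% interval of -0.09 to 0.13.

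Pdk4 (chromosome 6 from 5483351 to 5496309), the kinase gene known for its rise in fasting muscle and heart, was barely expressed in any sample. It had 18, 26 and 24 reads in WT, 6, 0 and 11 in the libraries labelled Atm-/- and 0, 0 and 2 in Sirt6-/-. Every WT sample lay above every knockout sample, and the Sirt6-/- samples were under the floor of 3 reads. With totals of 68 reads in WT and 2 in Sirt6-/-, the ratio per counted read was 33.2 (95% exact interval 8.83 to 279, counting error only). For the 17 reads of the libraries labelled Atm-/- the ratio of WT to knockout was 3.93 (2.28 to 7.13). The fitted log2 fold change there was -2.11, and it moved to -3.00 without sample 3 and to -1.52 without sample 2 of the libraries labelled Atm-/-, passing the test in each case. Both differences passed edgeR's quasi-likelihood test, with adjusted p = 5.27e-05 in Sirt6-/- and 0.0094 in the libraries labelled Atm-/-. The fitted fold change of Sirt6-/- depends on the prior count and is not given as a size. In the fit of the knockouts alone Pdk4 did not pass the filter on low counts, and their difference was not tested. Their counts overlapped at 0.

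Of the phosphatase genes, Pdp1 rose in both knockouts and Pdp2 in Sirt6-/-. Pdp1 (chromosome 4 from 11958184 to 11966452), which encodes a phosphatase that reactivates E1, had 224, 254 and 233 reads in WT, 576, 755 and 637 in the libraries labelled Atm-/- and 2625, 2642 and 2679 in Sirt6-/-. The 3 genotypes were far apart, and the 3 Sirt6-/- samples almost equal. Levels were 7.51 ± 0.557, 19.0 ± 2.47 and 80.8 ± 0.693 normalized CPM. Pdp1 was thus 10.8-fold higher in Sirt6-/- than in WT (log2 fold change 3.43, standard error 0.08, edgeR adjusted p = 1.13e-14), and 5.82% of the 13206 genes tested had a larger log2 fold change. It was 2.51-fold higher in the libraries labelled Atm-/- (log2 fold change 1.33, standard error 0.12, edgeR adjusted p = 2.0e-07). The difference between the knockouts was -2.08 on the log2 scale (standard error 0.07, edgeR adjusted p = 5.52e-16).

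Pdp2 (chromosome 8 from 104591451 to 104599026), the second phosphatase gene, had 379, 384 and 408 reads in WT, 768, 684 and 759 in Sirt6-/- and 553, 434 and 458 in the libraries labelled Atm-/-. Only the Sirt6-/- samples stood apart after scaling, at 22.5 ± 1.24 against 12.4 ± 0.540 normalized CPM in WT. That rise was 1.82-fold (log2 fold change 0.86, standard error 0.09, edgeR adjusted p = 7.15e-07). The libraries labelled Atm-/- had 14.0 ± 1.82 normalized CPM and overlapped WT. Their log2 difference of 0.17 did not pass the test (95% interval -0.08 to 0.41, edgeR adjusted p = 0.216), but with library totals it was 0.33 and did (edgeR adjusted p = 0.0197). Pdp2 was lower in the libraries labelled Atm-/- than in Sirt6-/-, with a log2 difference of -0.68 (standard error 0.10, edgeR adjusted p = 2.84e-06).

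**Figure D1:**
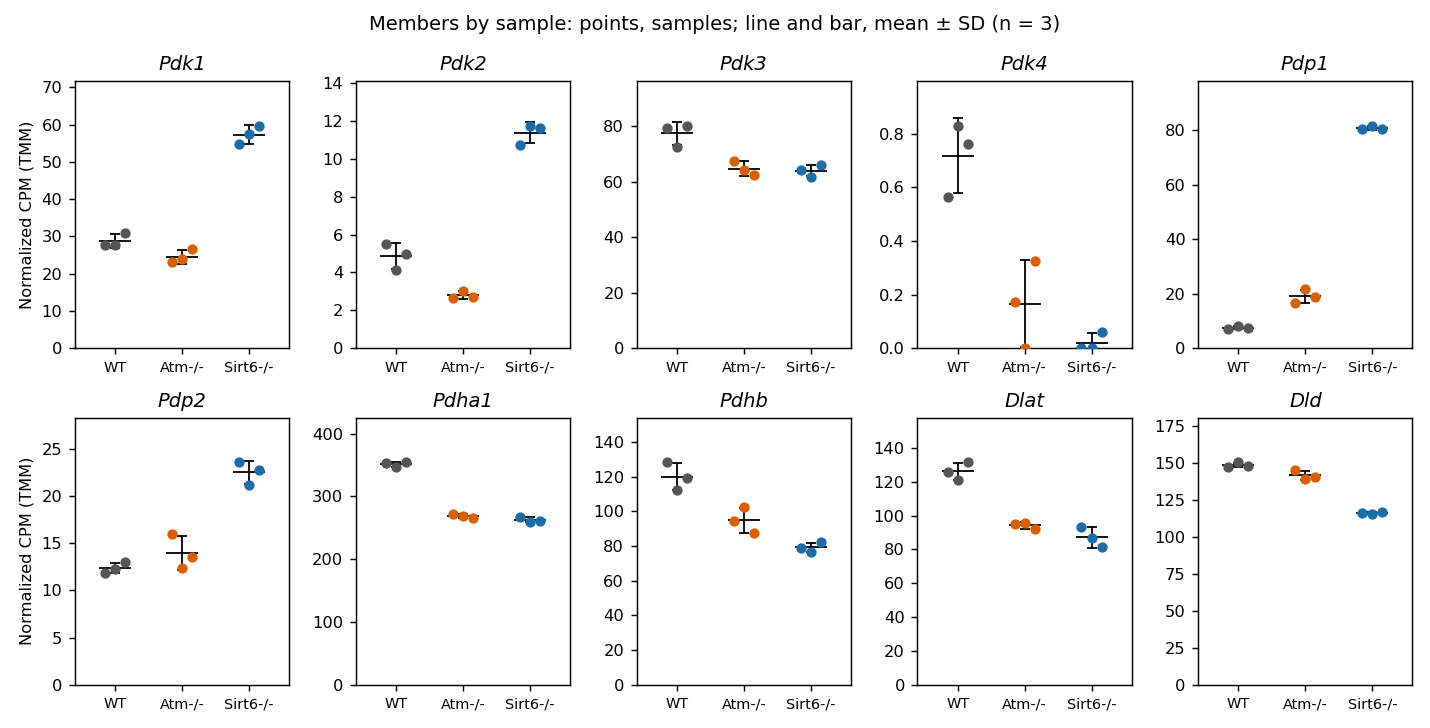
Normalized CPM (vertical axes, linear, from 0) of the 10 genes in the 3 WT, 3 Atm-/- and 3 Sirt6-/- samples, with points for samples and lines and bars for the mean ± SD. Pdk1, Pdk2, Pdp1 and Pdp2 stand highest in Sirt6-/-, Pdp1 also stands above WT in the libraries labelled Atm-/-, and Pdk3, Pdk4, Pdha1, Pdhb and Dlat stand highest in WT.

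The subunit genes of the complex were lower in both knockouts, except Dld in the libraries labelled Atm-/-. Pdha1 (chromosome X from 160122209 to 160138413), the gene of E1 alpha, had 11247, 10853 and 11161 reads in WT, 8712, 8413 and 8720 in Sirt6-/- and 9420, 9393 and 8995 in the libraries labelled Atm-/-. All knockout samples lay below all WT samples. The log2 fold changes were -0.42 in Sirt6-/- (standard error 0.04, edgeR adjusted p = 3.8e-07) and -0.40 in the libraries labelled Atm-/- (standard error 0.04, edgeR adjusted p = 6.49e-07). The difference between knockouts was 0.04 (95% interval -0.04 to 0.11), and it passed the test with library totals only, at 0.10 (edgeR adjusted p = 0.0266). Exons of Map3k15 on the opposite strand overlap 603 bases of Pdha1 exons. No source used here says that strand was used in counting, so reads there cannot be told apart between the genes. Map3k15 had 1087 to 1527 reads per sample and log2 fold changes of -0.43 in Sirt6-/- and -0.40 in the libraries labelled Atm-/-.

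Pdhb (chromosome 14 from 8165996 to 8173025), the gene of E1 beta, had 4090, 3518 and 3753 reads in WT, 2566, 2483 and 2739 in Sirt6-/- and 3269, 3585 and 2966 in the libraries labelled Atm-/-. Once scaled the 3 genotypes did not overlap, with 120 ± 7.93, 79.2 ± 2.75 and 94.8 ± 7.38 normalized CPM. The log2 fold changes were -0.60 in Sirt6-/- (standard error 0.06, edgeR adjusted p = 2.3e-07) and -0.35 in the libraries labelled Atm-/- (standard error 0.06, edgeR adjusted p = 0.000237). Pdhb was higher in the libraries labelled Atm-/- than in Sirt6-/-, by 0.27 on the log2 scale (edgeR adjusted p = 0.000235). In the GENCODE transcripts 30.3% of the 50-base stretches of Pdhb also occur in Gm6123, a gene not listed in the files, and how the authors assigned such reads is not given in the sources used here. No 50-base stretch of Pdk1, Pdk2, Pdk3, Pdp1, Dlat or Dld occurs in a transcript of another gene.

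Dlat (chromosome 9 from 50634633 to 50659780), the gene of E2, had 4001, 3791 and 4143 reads in WT, 3045, 2805 and 2707 in Sirt6-/- and 3301, 3349 and 3110 in the libraries labelled Atm-/-. Both knockouts lay below WT and overlapped each other after scaling. The log2 fold changes were -0.53 in Sirt6-/- (standard error 0.06, edgeR adjusted p = 9.87e-07) and -0.43 in the libraries labelled Atm-/- (standard error 0.05, edgeR adjusted p = 2.74e-06). Between the knockouts the log2 difference was 0.12 with an edgeR adjusted p of 0.046. It did not pass with all 9 samples in 1 fit, where the edgeR adjusted p was 0.0694. It was also lost without Sirt6-/- sample 2 or 3 or without sample 1 or 2 of those labelled Atm-/-, with a largest edgeR adjusted p of 0.226.

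Dld (chromosome 12 from 31331277 to 31351453), the gene of the shared E3, had 4708, 4712 and 4668 reads in WT, 3796, 3735 and 3897 in Sirt6-/- and 5030, 4891 and 4751 in the libraries labelled Atm-/-. Sirt6-/- samples lay below all others. Levels were 149 ± 1.59 in WT, 116 ± 0.761 in Sirt6-/- and 142 ± 2.98 normalized CPM in the libraries labelled Atm-/-. The log2 fold change of Sirt6-/- was -0.36 (standard error 0.04, edgeR adjusted p = 3.65e-06). That of the libraries labelled Atm-/- was -0.08 and did not pass the test (95% interval -0.17 to 0.02, edgeR adjusted p = 0.130), with a sign that turned to 0.09 with library totals (edgeR adjusted p = 0.0972). Dld was higher in the libraries labelled Atm-/- than in Sirt6-/- by 0.29 on the log2 scale (edgeR adjusted p = 2.8e-06).

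Against WT, 4 members rose and 6 fell in Sirt6-/-, where 76.6% of the 13206 genes tested passed, 39.2% higher and 37.4% lower. For the libraries labelled Atm-/-, 1 was higher and 7 lower, where 68.4% of 13283 genes passed, 34.7% higher and 33.6% lower. The median log2 fold change of the 10 genes was -0.31 in each comparison, against 0.02 over all genes in each. Both comparisons share the WT samples. Between the knockouts 9 genes were tested, of which 3 were higher and 4 lower in the libraries labelled Atm-/-, where 75.8% of 13460 genes passed, 38% higher and 37.8% lower. Most genes passed in each comparison, so these counts are not particular to the members. With library totals in place of TMM the median of all genes was itself 0.18 in the libraries labelled Atm-/- and 0.11 in Sirt6-/-, and the fold changes above are relative to most genes. Under that scaling 2 members were higher and 5 lower in the libraries labelled Atm-/-, beside 6156 higher and 3326 lower genes in all.

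**Figure D2:**
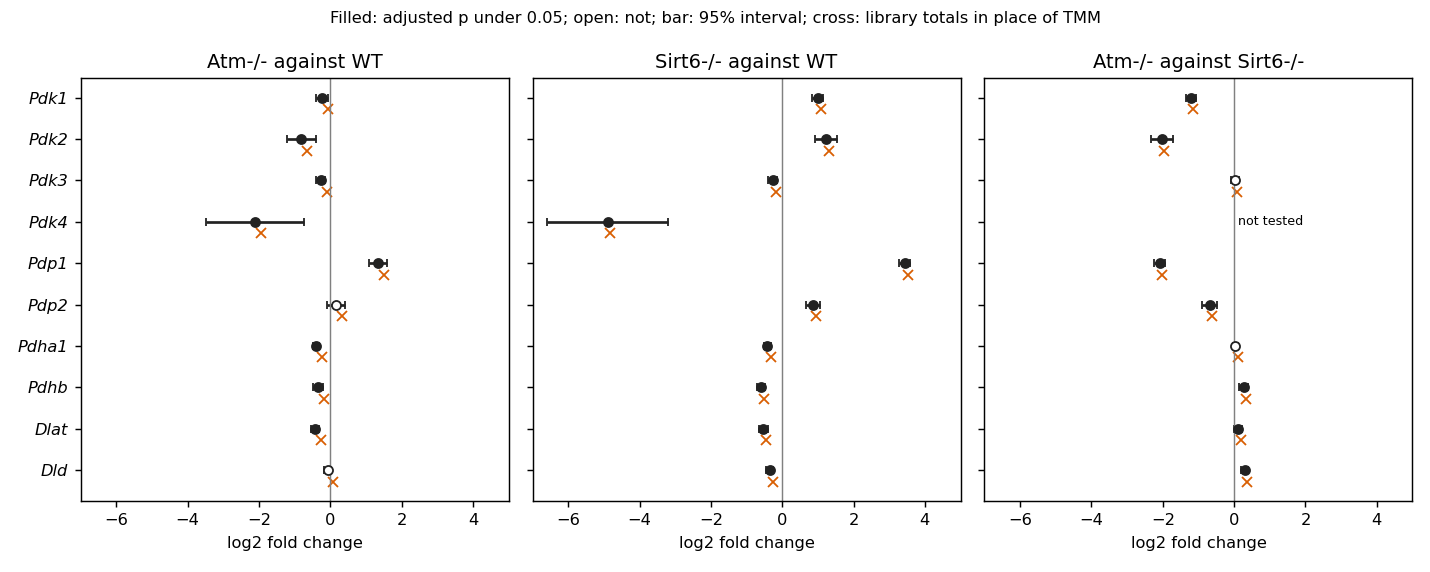
Log2 fold changes of the 10 genes (horizontal axes) in the 3 comparisons, with 95% intervals from edgeR's quasi-likelihood fit, filled points for an adjusted p under 0.05, and crosses for the value with library totals in place of TMM. Pdp1 lies at 3.43 in Sirt6-/- and 1.33 in the libraries labelled Atm-/-, the subunit genes lie between -0.60 and -0.08 in both comparisons with WT, and the Pdk4 point of Sirt6-/- depends on the prior count.

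Levels can be compared between genes only per length, for which the deposited RPKM was used. In WT the order was Pdha1 at 120 ± 1.54 RPKM, Pdhb at 76.2 ± 5.02, Dld at 61.6 ± 0.616, Pdk3 at 36.5 ± 2.08, Dlat at 29.5 ± 1.28 and Pdk1 at 5.22 ± 0.354. Below these came Pdp2 at 3.33 ± 0.153 RPKM, Pdk2 at 2.04 ± 0.287, Pdp1 at 1.69 ± 0.124 and Pdk4 at 0.196 ± 0.0378. Only Pdk2 and Pdp1 overlapped as neighbours in this order. In Sirt6-/- Pdp1 had 19.4 ± 0.219 RPKM and stood above Pdk1 at 11.1 ± 0.428 and just below Dlat at 21.6 ± 1.65, with no overlap between neighbours. For the libraries labelled Atm-/-, Pdk1, Pdp1 and Pdp2 had 4.97 ± 0.376, 4.77 ± 0.621 and 4.19 ± 0.549 RPKM, and each overlapped the next, as did Pdhb and Dld.

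The share of each gene in the summed RPKM of the 4 kinase genes does not depend on library scaling. Pdk3 made up 82.7 to 83.4% in WT, 82.9 to 85.6% in the libraries labelled Atm-/- and 65.5 to 67.8% in Sirt6-/-. Pdk1 made up 11.2 to 12.3%, 11.3 to 13.7% and 22.2 to 23.5% in the same order. For both genes the Sirt6-/- samples stood apart, and the other 2 genotypes overlapped. Pdk2 made up 4.20 to 5.11% in WT, 2.94 to 3.52% in the libraries labelled Atm-/- and 10.5 ± 0.507% in Sirt6-/- (mean ± SD), without overlap, and Pdk4 at most 0.551% in any sample. The 3 genotypes differed in the share of Pdk3 (exact permutation test of the between-genotype sum of squares over all arrangements of the 9 samples, p = 0.0107, Benjamini-Hochberg adjusted p = 0.0214 over the 10 shares and ratios computed). They also differed in the shares of Pdk1 (exact permutation p = 0.0286, adjusted 0.0408), Pdk2 (exact permutation p = 0.00357, the smallest this design gives, adjusted 0.0119) and Pdk4 (exact permutation p = 0.0143, adjusted 0.0238). This exact permutation test does not say which genotypes differ, and one of 3 samples against 3 cannot go below p = 0.10. The shares of a sample add up to the whole, so a rise in some must lower others and these tests are not independent. The share of Pdk1 was 11.1 percentage points higher in Sirt6-/- than in WT, that of Pdk2 5.85 points higher and that of Pdk3 16.5 points lower on the means 66.6 ± 1.14 and 83.0 ± 0.322%. Computed on counts without transcript length, which gives longer transcripts more weight, the difference of Pdk1 was 17.5 points and that of Pdk3 -21.0 points.

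Pdp1 made up 32.3 to 35.6% of the summed phosphatase RPKM in WT, 46.5 to 59.3% in the libraries labelled Atm-/- and 74.1 to 76.4% in Sirt6-/-. No genotypes overlapped (exact permutation p = 0.00357, Benjamini-Hochberg adjusted p = 0.0119). The more abundant phosphatase RNA was thus Pdp2 in each WT sample and Pdp1 in each Sirt6-/- sample.

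**Figure D3:**
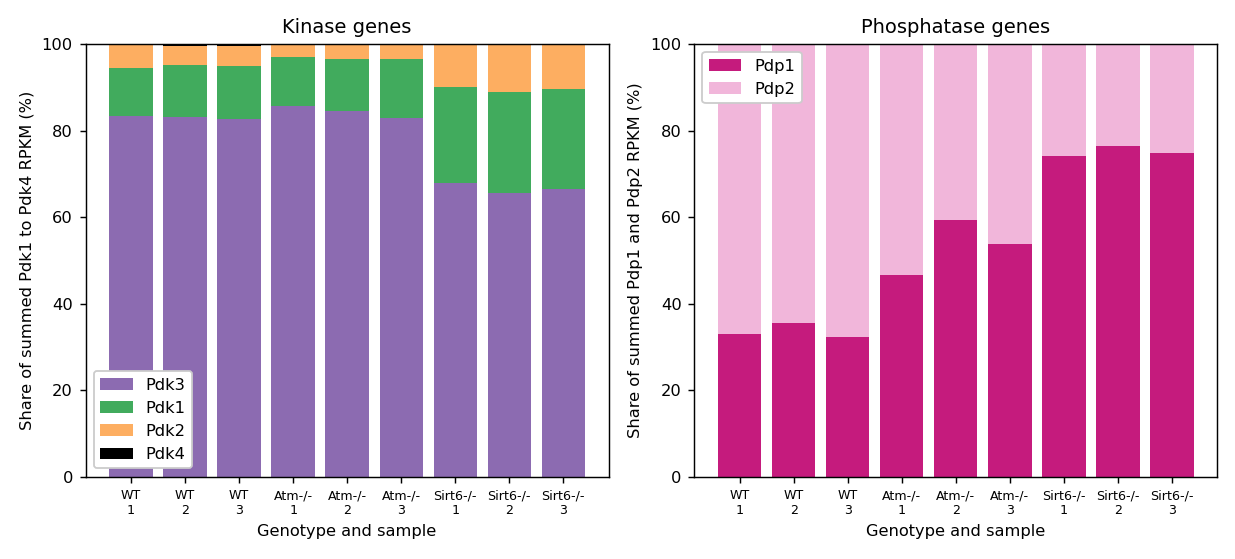
Stacked bars of the share of each kinase gene in the summed RPKM of Pdk1 to Pdk4 (left, percent) and of Pdp1 and Pdp2 in their sum (right, percent) for the 9 samples. Pdk3 fills 82.7% or more in WT and in the libraries labelled Atm-/- and 65.5 to 67.8% in Sirt6-/-, and Pdp1 rises from 32.3 to 35.6% in WT to 74.1 to 76.4% in Sirt6-/-.

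Summed kinase RPKM was 8.74 times the summed phosphatase RPKM in WT, 4.50 times in the libraries labelled Atm-/- and 1.87 times in Sirt6-/- (geometric means). On the log2 scale these ratios were 3.13 ± 0.116, 2.17 ± 0.041 and 0.90 ± 0.043 (mean ± SD, n = 3), and no genotypes overlapped. Set against the mean RPKM of both E1 genes, summed kinase RPKM was 0.448 in WT, 0.477 in the libraries labelled Atm-/- and 0.648 in Sirt6-/-. Only Sirt6-/- stood apart there, with log2 ratios of -0.66 to -0.59 against -1.21 to -1.10 in WT. RNA of both the kinases and the phosphatases was thus higher relative to E1 in Sirt6-/-, and that of the phosphatases by more. The E1 genes themselves fell there, Pdha1 from 120 to 95.4 and Pdhb from 76.2 to 53.4 mean RPKM. Pdk3, the most abundant kinase gene, fell from 36.5 to 32.1. The ratios of sums are given as a description, since their members were chosen with earlier results known.

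Ratios between subunit genes differed less between genotypes than the kinase to phosphatase ratio, by at most 0.27 from WT on the log2 scale. The log2 ratio of Dlat to Pdhb was -1.37 ± 0.09 in WT, -1.31 ± 0.14 in Sirt6-/- and -1.45 ± 0.08 in the libraries labelled Atm-/-, and all 3 overlapped (exact permutation p = 0.321). The log2 ratio of Pdha1 to Pdhb was 0.66 ± 0.08, 0.84 ± 0.05 and 0.61 ± 0.11, with Sirt6-/- above both others, but the difference did not pass the test (exact permutation p = 0.0571, adjusted 0.0635). The ratio of Dld to Pdhb was -0.30 ± 0.11 in WT, -0.06 ± 0.04 in Sirt6-/- and -0.03 ± 0.12 in the libraries labelled Atm-/-. Both knockouts lay above WT in this ratio (exact permutation p = 0.0357, adjusted 0.0446). It no longer passed without sample 1 or 3 of WT, any 1 of the Sirt6-/- samples, or sample 1 or 3 of those labelled Atm-/-, with exact permutation p-values up to 0.10.

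**Figure D4:**
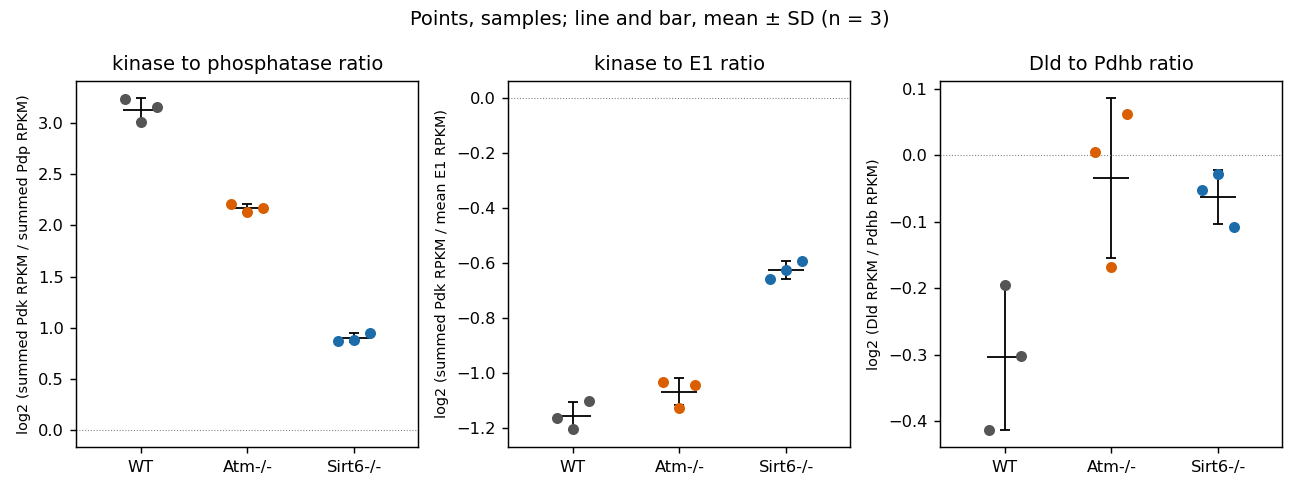
Log2 ratios of RPKM per sample (vertical axes, linear scale of log2 values), with points for samples and lines and bars for the mean ± SD. The kinase to phosphatase ratio falls from 3.13 in WT to 2.17 in the libraries labelled Atm-/- and 0.90 in Sirt6-/-, while the kinase to E1 ratio is highest in Sirt6-/-, and Dld to Pdhb is lowest in WT.

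Other genes tied to the complex were taken from lists. Pdhx, which encodes the protein that holds E3 in the complex, was at 47.0 ± 1.51 normalized CPM in WT, 36.0 ± 2.17 in Sirt6-/- and 44.3 ± 0.964 in the libraries labelled Atm-/-. It fell by 0.38 on the log2 scale in Sirt6-/- (edgeR adjusted p = 0.000124), as the E1, E2 and E3 genes did, and had a log2 fold change of -0.09 in the libraries labelled Atm-/- (edgeR adjusted p = 0.199). Pdpr, which encodes the regulatory subunit of the phosphatase, had log2 fold changes of 0.15 in Sirt6-/- (edgeR adjusted p = 0.286) and -0.28 in the libraries labelled Atm-/- (edgeR adjusted p = 0.0404, not passed with library totals). Pdp1, by contrast, rose in both comparisons. Pdha2, the testis form of E1 alpha, had no read in any sample.

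Of 16 transcription factors and coactivators known to act on kinase genes, 14 were tested in Sirt6-/-, where 4 were higher and 4 lower (7 and 4 with library totals) with a median log2 fold change of 0.03, beside 39.2% higher and 37.4% lower of all genes. Foxo3 rose 2.98-fold (log2 fold change 1.58, edgeR adjusted p = 1.11e-10), while Epas1, the gene of HIF-2 alpha, fell to 0.310 of WT, and the mitochondrial regulators Esrra and Ppargc1b fell by 0.99 and 4.58 on the log2 scale. Among 15 tested in the libraries labelled Atm-/-, 5 were higher and 7 lower, with a median of -0.13, beside 34.7% higher and 33.6% lower of all genes. Epas1 fell by 4.21, Ppargc1b by 1.68 and Arnt, the partner of HIF alpha subunits, by 0.78 on the log2 scale, and Myc rose by 0.64. The largest rises were of low-level genes and are named after their values were seen. Pparg had 4.59 ± 0.539 against 0.106 ± 0.0372 normalized CPM in WT (edgeR adjusted p = 3.52e-09), and Ppargc1a, the other PGC-1 coactivator gene, 7.22 ± 0.290 against 0.498 ± 0.272 (edgeR adjusted p = 2.13e-08). Pparg was higher in Sirt6-/- too, at 1.13 ± 0.134 against 0.103 ± 0.0364 normalized CPM in WT (edgeR adjusted p = 1.6e-05), and Ppargc1a was not tested there. In the fit of the knockouts alone Hif1a stood at 225 ± 9.93 in the libraries labelled Atm-/- and 506 ± 9.28 normalized CPM in Sirt6-/-. That log2 difference was -1.17 (edgeR adjusted p = 2.4e-16). Against WT, Hif1a had log2 fold changes of 0.58 in Sirt6-/- (edgeR adjusted p = 9.26e-09) and -0.61 in the libraries labelled Atm-/- (edgeR adjusted p = 1.89e-08).

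Among 15 genes known as HIF targets, 7 were higher and 6 lower in Sirt6-/- (median log2 fold change 0.27), so that the list did not move one way. There 2 of the 15 did not pass, in a comparison where 76.6% of all genes passed. Adm, a vasodilator peptide gene, had a log2 fold change of 7.15 from 0.493 CPM in WT, Bnip3, a mitophagy gene, rose 5.05-fold and Ddit4, an mTORC1 inhibitor gene, 4.96-fold, but Egln3, a HIF hydroxylase gene, fell to 0.207 of WT. Of 14 tested in the libraries labelled Atm-/-, 4 were higher and 8 lower (median -0.54), beside 68.4% of all genes passing. Ndrg1, P4ha1 and Pfkfb3 fell by 1.93, 1.54 and 1.35 on the log2 scale, and Bnip3 rose by 0.94. Adm rose here too, from a low level and named after its value was seen, by 4.52 on the log2 scale (edgeR adjusted p = 4.41e-10). Among 16 genes known as PPAR or FOXO targets 14 were tested in each comparison. In Sirt6-/- 7 were higher and 3 lower (median 0.37), beside 39.2% and 37.4% of all genes, with Angptl4, a lipase inhibitor gene, 58.7-fold higher, Ucp2, a mitochondrial carrier gene, 51.2-fold and Cpt1a, of fatty acid import, 2.11-fold, at the same time as Pdk4 was nearly undetected. The libraries labelled Atm-/- had 5 higher and 7 lower (median -0.14), beside 34.7% and 33.6% of all genes. Ucp2 was 80.9-fold higher, Txnip fell by 1.70 and Cpt1a by 0.57 on the log2 scale.

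For the entry of pyruvate into mitochondria and its other fates, 12 genes were tested. In Sirt6-/- 4 were higher and 8 lower, with a median of -0.28, beside 76.6% of all genes passing and 37.4% lower. Ldhb, a lactate dehydrogenase gene, rose 30.3-fold, from 8.29 to 252 normalized CPM. Ldha, the lactate dehydrogenase gene with more reads in these samples, rose 1.36-fold, from 730 to 994 normalized CPM. Pcx, the gene of pyruvate carboxylase, rose 5.21-fold and Acly, of citrate lyase, 2.15-fold, while Me2, of malic enzyme, fell by 0.86 on the log2 scale. The libraries labelled Atm-/- had 5 higher and 5 lower (7 and 3 with library totals), with a median of -0.04, beside 34.7% higher and 33.6% lower of all genes. Ldhb rose 5.80-fold, Ldha 1.32-fold and Acly 1.36-fold, and Pck2 and Gpt2 fell by 1.58 and 1.06 on the log2 scale. Pcx, which takes pyruvate to oxaloacetate, thus rose where RNA of the E1, E2 and E3 genes fell in Sirt6-/-. Among 17 genes of lipoate and iron-sulphur cluster supply, on which E2 depends, 0 were higher and 11 lower in Sirt6-/- (median -0.32, edgeR's quasi-likelihood test as above, 1 higher and 10 lower with library totals), beside 39.2% higher and 37.4% lower of all genes. Lias, the gene of lipoate synthase, fell by 0.33 and Glrx5, Nfs1 and Oxsm by 0.38, 0.38 and 0.34 on the log2 scale. The scaling turned the balance in the libraries labelled Atm-/-, where 1 was higher and 4 lower with TMM and 4 higher and 2 lower with library totals, beside 34.7% and 33.6% of all genes with TMM. Oxsm fell by 1.12 and Nfu1 by 0.46 on the log2 scale, and Mcat, of mitochondrial fatty acid synthesis, rose by 0.78.

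**Figure D5:**
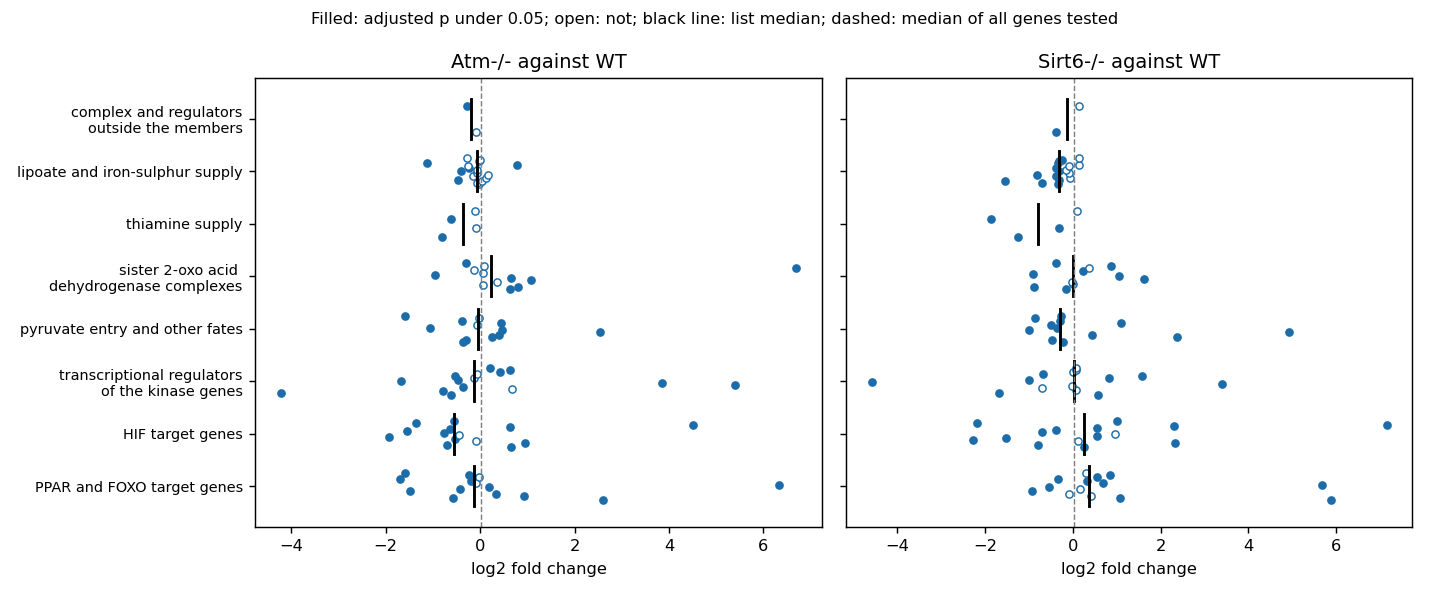
Log2 fold changes (horizontal axes) of the tested genes of 8 lists in the libraries labelled Atm-/- and in Sirt6-/- against WT, with filled points for an adjusted p under 0.05, black lines for list medians and dashed lines for the median of all genes tested. The lipoate list lies mostly below 0 in Sirt6-/- with a median of -0.32, and the HIF target list spreads on both sides with medians of -0.54 and 0.27.

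Genes with the pattern most like that of Pdk1 over the 9 samples, among 9364 with a mean of at least 3 on the log2 CPM scale, were Pla2g15, Fam213a and P2rx4, with Pearson r of 0.995, 0.994 and 0.994. For Pdk2 they were Rffl, Dctn3 and C3, with r of 0.997, 0.997 and 0.996. The 9 points fall into 3 genotype groups and share libraries, and 493 genes had an r over 0.95 with Pdk1 and 446 with Pdk2, so the order of likeness describes these samples only. All 6 genes were highest in Sirt6-/- and lowest in the libraries labelled Atm-/-. C3, of the complement system, had mean log2 CPM of 8.60 in WT, 10.37 in Sirt6-/- and 7.19 in the libraries labelled Atm-/-.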

How the data were processed

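RNA-seq counts of 9 MEF samples were analysed, 3 of each genotype, grouped by the sample titles. For each sample the authors deposited read counts of 24341 genes, whole numbers without normalization, and the authors also deposited RPKM, the same counts scaled to library size and to listed transcript length. The submitters' processing notes name the build mm10. The aligner, counting tool and strand setting are not given in the sources used here. Total counts and the detection floor are given above. They limit precision for genes with few reads, such as Pdk4.

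Each pair of genotypes was fitted with edgeR 4.0.16 in R 4.3.3 (filterByExpr, TMM, glmQLFit, glmQLFTest, Benjamini-Hochberg over all genes tested, adjusted p under 0.05). Standard errors came from the F statistic. Levels over all 9 samples were scaled with TMM once. Shares and ratios used RPKM and an exact two-sided permutation test over the 9 samples. The ratios of sums over members entered the Benjamini-Hochberg adjustment with the other measures, but their p-values are not reported. The procedure was tested on simulated data. The samples of a genotype differed by more than counting noise, so all 9 were counted. WT sample 2 stood apart within its genotype. Its difference in read counts, as chi-square per gene, was 15.6 from WT sample 1 and 14.4 from WT sample 3. That measure was 6.23 between WT samples 1 and 3, and 5.11 to 6.66 between samples within each knockout.

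The members, lists and tests were chosen with earlier results of these data known. Named are all 10 members, Atm, Sirt6, Trp53, Pdhx and Pdpr. Named too are up to 4 genes of each list by size of change, taken where the test was passed, groups were apart and mean log2 CPM reached 3. Pdha2 was named because it is on the first list. Named after their values were seen were the cell type markers, Map3k15, Gm6123, Ldha and Pparg. So were Adm and Ppargc1a for the libraries labelled Atm-/-. Alternatives were DESeq2 1.42.0 size factors and Wald test, library totals, other filters on low counts, a joint fit of all 9 samples, a block for replicate numbers, omission of single samples, a prior count of 2 in place of 0.125, a 2-fold threshold, and counts without length for shares and ratios. Positions come from GENCODE M21 on GRCm38. The result of 1 listed gene is not reported here.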

Additional observations from a re-analysis of the deposited data

How the results depend on the processing

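Of 404 alternative values of the members' log2 fold changes, 389 kept direction and side of the threshold, 10 lost the call, 2 gained it and 3 turned in sign without a call. These were Dld in the libraries labelled Atm-/- with library totals (0.085) and Pdk3 between the knockouts, at -0.011 to 0.049 when single samples were omitted. A 2-fold threshold left 2 members in the libraries labelled Atm-/- (1 lower; 2983 genes in all), 3 in Sirt6-/- (2 higher, 1 lower; 3872 genes) and 3 between the knockouts (0 higher; 3433 genes). With library totals 2 members were higher in the libraries labelled Atm-/-. Leaving out each sample gave 7 to 8, 10 to 10 and 6 to 7 members passing in these comparisons, with 1 to 1, 4 to 4 and 2 to 3 higher, 6 to 7, 6 to 6 and 4 to 4 lower, and 8545 to 9240, 9651 to 10217 and 9896 to 10007 genes in all.

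Replicate numbers did not pair the samples. Correlations of same-numbered deviations were -0.06 to -0.04 for the libraries labelled Atm-/- with WT, -0.05 to 0.09 for Sirt6-/- with WT and 0.01 to 0.13 between the knockouts. A replicate block left the number of members passing at 8, 10 and 7. Permuting within numbers, whose smallest p is 0.0278, gave exact p = 0.0833 for the Pdk1 share (differences from WT 0.469 and 11.1 points) and 0.0556 for the Pdk4 share (-0.324 and -0.438 points). It gave 0.111 for Dld to Pdhb.

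Without length, the Sirt6-/- difference from WT in log2 kinase to phosphatase ratio was -2.13 (RPKM -2.23), and in kinase to E1 ratio 0.71 (0.53). With each sample left out, differences of the libraries labelled Atm-/- and of Sirt6-/- from WT ranged as follows. The Pdha1 to Pdhb ratio of the former ranged from -0.094 to 0.011, turning without sample 2 labelled Atm-/-. The Pdk1 share ranged from -0.196 (reversed, without sample 3 labelled Atm-/-) to 0.997 and from 10.7 to 11.5 points, and Pdk2 from -1.61 to -1.16 and from 5.57 to 6.09. Pdk3 ranged from 0.591 to 1.97 and from -17.1 to -16.0, and Pdk4 from -0.386 to -0.261 and from -0.491 to -0.387, reaching p = 0.05 without WT sample 2 (exact permutation). The kinase to phosphatase ratio ranged from -1.02 to -0.91 and from -2.29 to -2.17, and the kinase to E1 ratio from 0.07 to 0.12 and from 0.51 to 0.56. The cause of these changes was not tested. Precision was lowest for Pdk4 and next for Pdk2, the members with the fewest reads, with standard errors of 0.64 and 0.19 in the libraries labelled Atm-/- against WT.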

Other observations

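The sister complexes of pyruvate dehydrogenase, which share E3 or its mechanism, did not move as 1 group. Of their genes 4 of 11 tested were higher and 4 lower in Sirt6-/- (5 and 3 with library totals), and 5 of 12 were higher and 2 lower in the libraries labelled Atm-/- (edgeR's quasi-likelihood test, adjusted p under 0.05), or 8 higher and 2 lower with library totals. Of all genes 76.6% passed in Sirt6-/- and 68.4% in the libraries labelled Atm-/-. Within the branched-chain complex the E1 genes rose and the E2 gene fell in both comparisons, which share WT. Bckdha had 8.81 ± 0.412 normalized CPM in WT and 27.0 ± 1.88 in Sirt6-/-, a 3.06-fold rise, and rose 2.11-fold in the libraries labelled Atm-/-. Bckdhb rose 2.08-fold and 1.58-fold. Dbt fell by 0.91 on the log2 scale in Sirt6-/- and by 0.96 in the libraries labelled Atm-/-.

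Thiamine diphosphate is the cofactor of E1. Slc19a2, the gene of a thiamine transporter, had 31.3 ± 3.47 normalized CPM in WT and 13.1 ± 1.03 in Sirt6-/- and fell by 1.26 on the log2 scale (edgeR adjusted p = 2.46e-08). It fell by 0.81 in the libraries labelled Atm-/- (edgeR adjusted p = 1.73e-06).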
